A study of Drosophila melanogaster with 12 samples.

Results

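Bomanins are short secreted peptides that *Drosophila* makes in response to infection. Their genes are induced by Toll signalling, in which a cleaved Spätzle ligand binds the Toll receptor and NF-kappaB factors enter the nucleus, and the fat body, the insect counterpart of liver and adipose tissue, releases the peptides into the hemolymph. Short forms (BomS) consist of little more than the Bomanin motif, bicipital forms (BomBc) carry 2 such motifs joined by a linker, and tailed forms (BomT) carry the motif followed by a C-terminal extension.

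The genes described are the 9 whose name in the deposited tables is *BomS1* to *BomS6* or *BomBc1* to *BomBc3*, out of 17589 features, of which 12710 are protein-coding genes. They were chosen by name, with earlier results of these data known. The 3 tailed genes, *BomT1* to *BomT3*, complete the 12 Bomanins in the tables and are given beside them. Libraries were made from adult heads at 2 days of age, 4 for each of 3 genotypes. Labels give them as nSybGal4/ND-75 strong RNAi (ND-75KDstrong), nSybGal4/ND-75 weak RNAi (ND-75KDweak) and nSybGal4/w[1118] (control). The study's text adds the temperature-sensitive Gal4 repressor *Tub-Gal80ts* to the driver of all 3, which the labels do not mention. ND-75KDstrong encodes a short hairpin and ND-75KDweak a long hairpin against *ND-75*, a core subunit of mitochondrial complex I. Each is a single RNAi line, and no line with an unrelated hairpin is among the samples. *nSyb-Gal4* is active in neurons, whereas the head libraries also hold fat body, hemocytes, glia and muscle. A library is a pool of 20 heads, 10 male and 10 female.

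Libraries held 19309456 to 34169998 counts, and the 9 genes together took 0.0722 to 0.103% of the counts in ND-75KDstrong, 0.0350 to 0.0533% in ND-75KDweak and 0.0602 to 0.115% in control heads. All 9 passed the filter on low counts in every comparison, with 77 (*BomS5*) to 13574 (*BomS3*) reads per library. Control library 3 had the highest share and the fewest features with any count (12966). *ND-75* stood at 453 to 638 CPM (counts scaled to a library of 1000000) in ND-75KDstrong, 564 to 665 CPM in ND-75KDweak and 716 to 1380 CPM in control heads, with no overlap between either knockdown and control. Its log2 fold change was -0.79 ± 0.22 (SE) for ND-75KDstrong against control (adjusted p = 0.117) and -0.59 ± 0.20 for ND-75KDweak against control (adjusted p = 0.116), in edgeR's quasi-likelihood test. Between ND-75KDstrong and ND-75KDweak it was -0.18 ± 0.12 (adjusted p = 0.432), and the libraries overlapped. Of 9 fat body marker genes none was without counts, and their summed level was 5674 to 9929 CPM in ND-75KDstrong, 8858 to 10473 CPM in ND-75KDweak and 2659 to 7349 CPM in control heads. The 11 hemocyte markers, all with counts, summed to 722 to 833 CPM in ND-75KDstrong, 975 to 1074 CPM in ND-75KDweak and 765 to 943 CPM in control heads. The part of these tissues in the Bomanin values was not tested. In heads taken whole, fewer cells of a type and less RNA per cell cannot be told apart.

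On chromosome arm 2R, 8 of the 9 genes lie together with *BomT1* and *BomT2* within 9.24 kb (18381393 to 18390629, release 6 of the *D. melanogaster* genome). In the order of the arm these are *BomT1* and *BomBc1* on the minus strand, *BomS1* and *BomS4* on the plus strand, *BomBc2* on the minus strand, *BomS2*, *BomS3*, *BomT2* and *BomS5* on the plus strand, and *BomS6* on the minus strand. Between the outermost of the 8 genes the tables hold no feature that is not a Bomanin. *BomBc3* (22087075 to 22088501) and *BomT3* lie back to back on arm 3R, with 677 bases between them. The 3' ends of *BomS4* (18384567 to 18384911) and *BomBc2* (18384824 to 18385589) face each other, and 88 bases belong to exons of both, 31.3% of the exon length of *BomS4* and 12.4% of that of *BomBc2*. The library kit does not keep strand, so reads from this stretch cannot be assigned to either gene by strand. Bomanins resemble each other in sequence, and how reads that match several genes were counted is not given in the sources used here, so values of single genes are uncertain to that extent.

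Per kilobase of the deposited gene length, levels in control heads ranged from 395 ± 164 CPM per kb for *BomBc2* (mean ± SD, n = 4) through 374 ± 114 for *BomS3*, 249 ± 48.9 for *BomS2* and 208 ± 112 for *BomS1* to 16.1 ± 2.43 for *BomS4*. *BomBc1* (94.5 ± 73.0), *BomS6* (29.6 ± 7.04), *BomS5* (24.8 ± 2.93) and *BomBc3* (20.5 ± 8.49 CPM per kb) lay between. By this measure the 9 genes fell into 4 of high level, 4 of low level and *BomBc1* between these. The deposited length covers all annotated exons, 1301 bases in 3 transcripts for *BomBc3* and 281 bases in 1 transcript for *BomS4*. The order depends on these lengths. Neighbours in this order overlapped between libraries except *BomBc1* and *BomS6*. The order in ND-75KDstrong was led by *BomS3* (409 ± 98.5), *BomS1* (403 ± 107) and *BomS2* (317 ± 99.5 CPM per kb) and closed by *BomS4* (24.3 ± 11.6). In ND-75KDweak it was led by *BomS3* (221 ± 45.01) and closed by *BomBc3* (12.02 ± 2.39 CPM per kb), with *BomS4* (47.9 ± 14.2) sixth of the 9. In CPM not divided by length, *BomBc3* (15.6 ± 3.11) was not below *BomS4* (13.5 ± 3.99) there. Neighbours in the order were free of overlap only at *BomBc2* and *BomBc1* in ND-75KDstrong and at *BomS5* and *BomBc3* in ND-75KDweak.

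The first comparison sets ND-75KDweak against control heads. In ND-75KDweak heads the Bomanins moved in opposite directions within 1 cluster. *BomS4* and *BomS6*, both of low level, rose, and the abundant *BomBc2* fell. *BomBc1*, *BomS1*, *BomS3*, *BomBc3* and *BomS2* had fitted values below 0 that missed the threshold (adjusted p under 0.05), and *BomS5* was at 0.03 ± 0.23 on the log2 scale. Of the 9 genes, edgeR called 2 higher and 1 lower, against 2.56% higher and 3.98% lower (6.54% in all) of the 10415 features tested. Over the 9 the log2 fold changes had a median of -0.75, against -0.01 over all features.

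**Figure D1:**
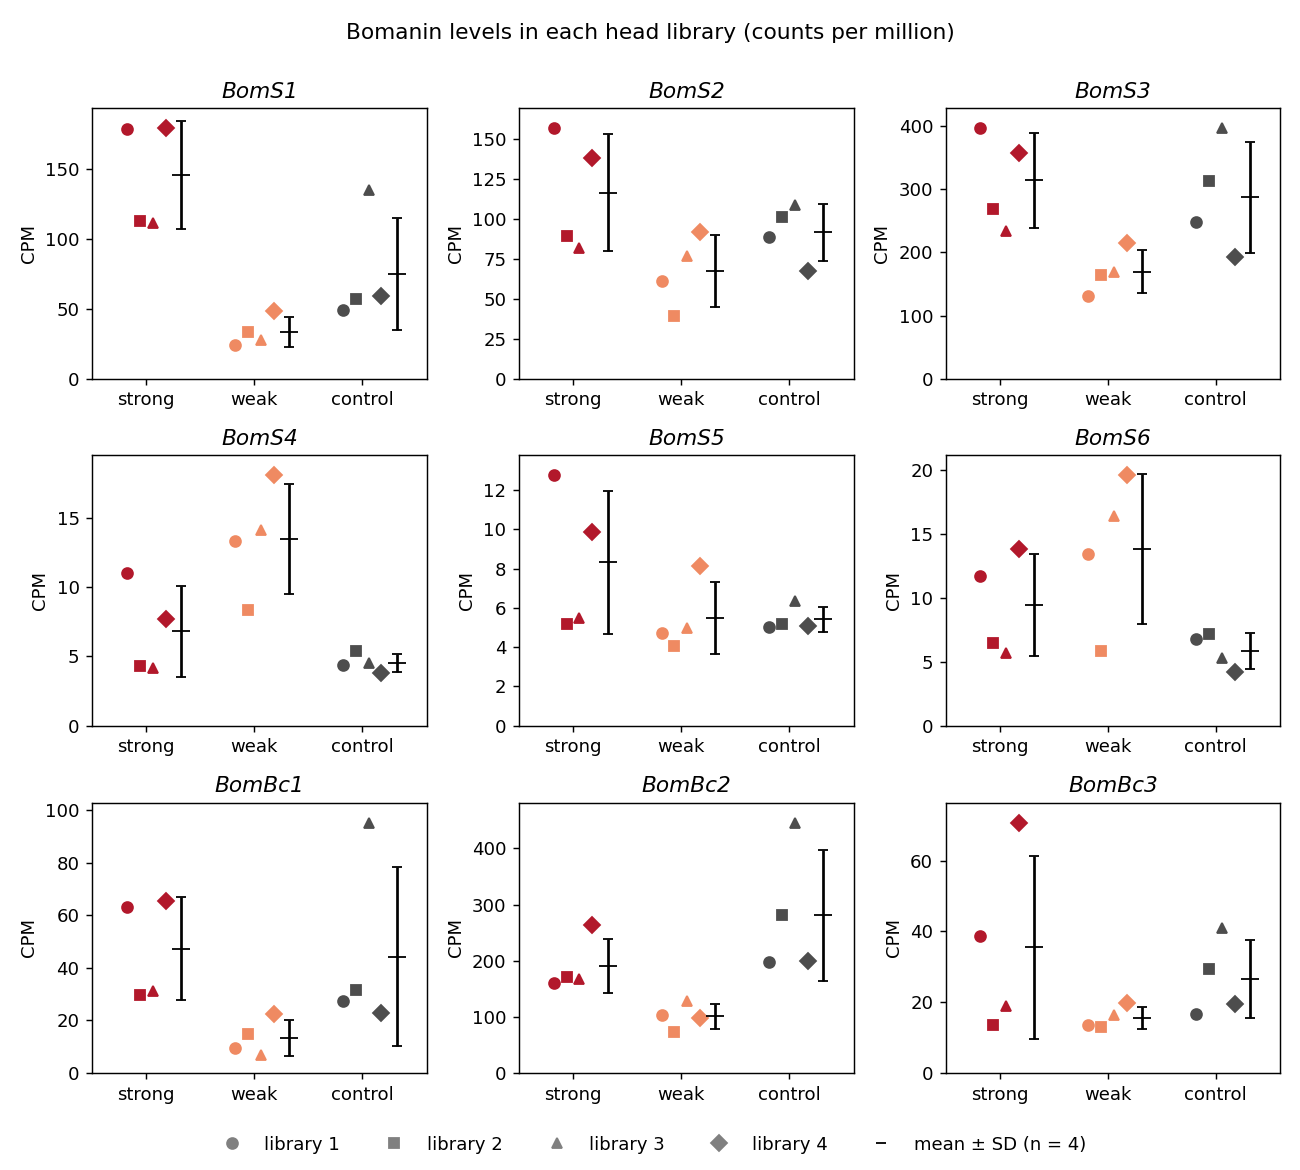
Level of each of the 9 Bomanin genes, in CPM, in the 4 ND-75KDstrong, 4 ND-75KDweak and 4 control libraries. Symbols stand for single libraries, crosses with bars for the mean ± SD. *BomS4* is higher in all 4 ND-75KDweak libraries than in any control library, *BomS1*, *BomBc1* and *BomBc2* are lower in all 4, and control library 3 is the highest control for 7 of the 9 genes.

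*BomS4* encodes a short form. It was at 13.3, 8.36, 14.2 and 18.1 CPM in the ND-75KDweak libraries, against 4.36, 5.42, 4.56 and 3.77 CPM in the control libraries. The lowest ND-75KDweak library stood above the highest control library. The log2 fold change was 1.59 ± 0.23 (3.01-fold, edgeR adjusted p = 0.002155), and the exact two-sided permutation test of log2 CPM gave p = 0.0286, the smallest that 4 against 4 libraries allow. The call held in all 16 alternatives tried.

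*BomS6*, another short form at the far end of the cluster, was at 13.4, 5.89, 16.4 and 19.6 CPM in the ND-75KDweak libraries, against 6.81, 7.19, 5.27 and 4.18 CPM in the control libraries. ND-75KDweak library 2 lay among the controls, and the other 3 lay above all of them. The log2 fold change was 1.26 ± 0.32 (2.39-fold, edgeR adjusted p = 0.0417, exact permutation p = 0.0857). This call was lost when any library other than ND-75KDweak library 2 was left out, with adjusted p from 0.0598 to 0.138, and without ND-75KDweak library 2 the log2 fold change was 1.51 (adjusted p = 0.00245).

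*BomBc2*, a bicipital form with the highest mean level per kilobase in control heads, was at 104, 73.6, 128 and 97.8 CPM in the ND-75KDweak libraries, against 197, 281, 446 and 199 CPM in the control libraries. The groups did not overlap. It fell by 1.47 ± 0.27 on the log2 scale (edgeR adjusted p = 0.00855, exact permutation p = 0.0286), and the call held in all 16 alternatives. The gene shares its 3' end with *BomS4*, which moved the other way, and *BomBc2* had the higher level per kilobase of this pair in every library.

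*BomBc1*, a bicipital form, was at 9.39, 14.7, 6.94 and 22.2 CPM in the ND-75KDweak libraries, against 27.1, 31.6, 95.2 and 22.9 CPM in the control libraries. *BomS1*, a short form, was at 24.4, 33.1, 28.0 and 48.3 CPM in the ND-75KDweak libraries, against 49.3, 56.7, 135 and 59.0 CPM in the control libraries. For both genes the groups did not overlap, but by narrow gaps, and control library 3 stood far above the other controls. *BomBc1* had a log2 fold change of -1.73 ± 0.49 (edgeR adjusted p = 0.0609) and *BomS1* of -1.16 ± 0.33 (adjusted p = 0.0628), each with an exact permutation p of 0.0286. Both were called by DESeq2 (adjusted p = 0.0497 for *BomBc1* and 0.00761 for *BomS1*). Without control library 3 the values were -1.03 for *BomBc1* and -0.72 for *BomS1*, on the log2 scale, and neither passed.

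*BomS3*, a short form, was at 130 to 215 CPM in ND-75KDweak and 192 to 397 CPM in control heads, with a log2 fold change of -0.75 ± 0.23 (edgeR adjusted p = 0.0856; 0.0263 with DESeq2). *BomBc3*, the bicipital gene on 3R, was at 12.9 to 19.8 CPM in ND-75KDweak and 16.7 to 41.0 CPM in control heads (-0.76 ± 0.27, adjusted p = 0.140). *BomS2* was at 38.9 to 91.4 CPM in ND-75KDweak and 67.5 to 108 CPM in control heads (-0.43 ± 0.25, adjusted p = 0.347). These 3 overlapped with control. *BomS5* was at 4.05 to 8.14 CPM in ND-75KDweak and 5.05 to 6.37 CPM in control heads, and its adjusted p was 0.952. Of the 9 genes 1 lay wholly above and 3 wholly below the control libraries, against 7.18% and 8.43% of all features tested (15.6% in either direction).

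**Figure D2:**
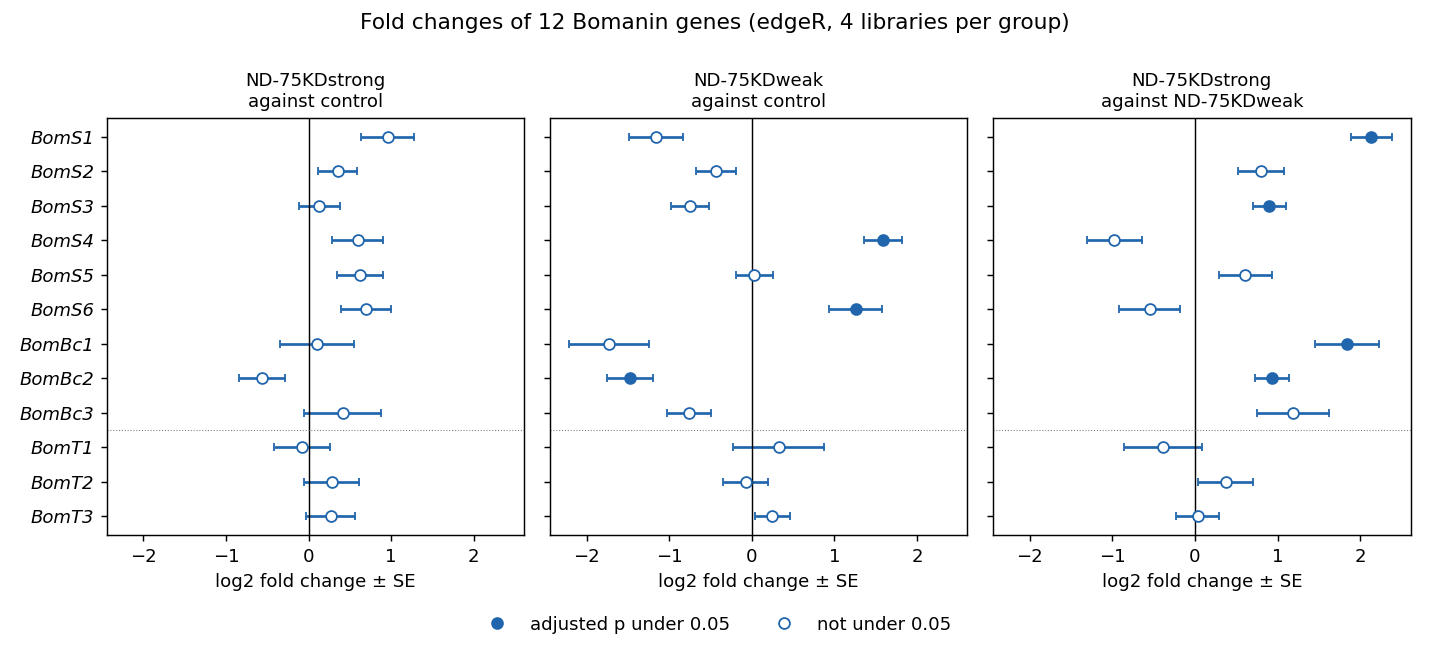
Log2 fold change ± SE of the 9 Bomanin genes and, under the dotted line, the 3 tailed Bomanin genes in ND-75KDstrong against control, ND-75KDweak against control and ND-75KDstrong against ND-75KDweak (edgeR, 4 libraries per group, filled where the adjusted p is under 0.05). No gene is filled in the first panel, *BomS4*, *BomS6* and *BomBc2* are filled in the second, and *BomS1*, *BomS3*, *BomBc1* and *BomBc2* in the third.

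The second comparison sets ND-75KDstrong against control heads. In ND-75KDstrong heads no Bomanin passed the threshold, and 8 of the 9 fitted values were above 0. edgeR called 0 of the 9, against 1.78% higher and 0.589% lower (2.37% in all) of the 10522 features tested, and DESeq2 also called 0. At an unadjusted p under 0.05, edgeR had 2 higher (*BomS1* and *BomS6*) and 0 lower. The share of all features at that threshold was not counted, so this is a listing only. The 9 log2 fold changes had a median of 0.41, against -0.01 over all features. No gene was free of overlap with control, whereas 4.69% of the features tested lay wholly above and 4.06% wholly below (8.74% in all).

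*BomS1* was at 179, 113, 112 and 179 CPM in the ND-75KDstrong libraries, against 49.3, 56.7, 135 and 59.0 CPM in the control libraries. All 4 ND-75KDstrong libraries lay above 3 of the 4 controls, and control library 3 lay between them. The log2 fold change was 0.96 ± 0.32 (edgeR adjusted p = 0.231, exact permutation p = 0.0857). Without control library 3 it was 1.42 (adjusted p = 0.00611), and without control library 3 and ND-75KDstrong library 4 it was 1.31 (adjusted p = 0.00349). This was the only Bomanin whose call in this comparison depended on a library.

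*BomS6*, *BomS5* and *BomS4* had log2 fold changes of 0.69 ± 0.30, 0.62 ± 0.28 and 0.59 ± 0.31 in ND-75KDstrong against control (edgeR adjusted p = 0.406, 0.442 and 0.525). In each of the 3, ND-75KDstrong libraries 1 and 4 lay above all controls and libraries 2 and 3 among them. *BomS4*, for example, was at 11.04, 4.31, 4.18 and 7.72 CPM in the ND-75KDstrong libraries, against 3.77 to 5.42 CPM in control heads. *BomBc2* was the only gene with a value below 0 (-0.56 ± 0.28, adjusted p = 0.506), at 161, 171, 166 and 263 CPM in ND-75KDstrong, against 197, 281, 446 and 199 CPM in control heads. *BomBc3* (0.41 ± 0.47), *BomS2* (0.35 ± 0.24), *BomS3* (0.13 ± 0.25) and *BomBc1* (0.10 ± 0.45) had adjusted p from 0.677 to 0.974.

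The third comparison sets the 2 knockdowns against each other directly and does not use the control libraries. It shares its ND-75KDweak libraries with the first comparison. The sign of a gene described there as low in these libraries is thus partly built in here. Relative to ND-75KDweak, 4 Bomanins rose in ND-75KDstrong heads, 2 short forms (*BomS1* and *BomS3*) and 2 bicipital forms (*BomBc1* and *BomBc2*). edgeR called 0 lower, with 1 (*BomS4*) at an unadjusted p under 0.05, and DESeq2 called 1 lower. Of the 10638 features tested 8.18% were called higher and 3.09% lower (11.3% in all). The 9 log2 fold changes had a median of 0.90, against 0.02 over all features. The called 4 lay wholly above ND-75KDweak and no gene wholly below, against 11.3% and 6.69% of all features (17.9% in all).

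*BomS1* had the largest difference of the 9, at 179, 113, 112 and 179 CPM in ND-75KDstrong, against 24.4, 33.1, 28.0 and 48.3 CPM in ND-75KDweak heads. The lowest ND-75KDstrong library was far above the highest ND-75KDweak library. The log2 fold change was 2.13 ± 0.25 (4.39-fold, edgeR adjusted p = 0.0004923), and it held in all 16 alternatives. *BomBc1*, at 63.0, 29.7, 31.1 and 65.3 CPM in ND-75KDstrong and 9.39, 14.7, 6.94 and 22.2 CPM in ND-75KDweak heads, rose by 1.84 ± 0.38 on the log2 scale (adjusted p = 0.01164) and also held in all 16.

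*BomBc2* rose by 0.93 ± 0.20 and *BomS3* by 0.90 ± 0.20 on the log2 scale in ND-75KDstrong against ND-75KDweak (edgeR adjusted p = 0.01419 for each). *BomBc2* had been called lower against control in these same ND-75KDweak libraries, so its sign here is partly built in. In ND-75KDstrong against control its value was -0.56 ± 0.28. *BomS3* was at 397, 269, 234 and 358 CPM in ND-75KDstrong and 130, 164, 170 and 215 CPM in ND-75KDweak heads. Each missed the threshold in 1 of the 16 alternatives, *BomBc2* without ND-75KDweak library 4 (adjusted p = 0.0514) and *BomS3* without ND-75KDstrong library 1 (adjusted p = 0.0506). For all 4 genes the exact permutation p was 0.0286.

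The members that rose in ND-75KDweak against control, *BomS4* and *BomS6*, had the opposite sign here, and edgeR called neither. They were picked for high levels in the same ND-75KDweak libraries that are the baseline here. Their sign is thus partly built in by that choice and is no separate result. *BomS4* had a log2 fold change of -0.97 ± 0.33 (edgeR adjusted p = 0.0933), at 11.04, 4.31, 4.18 and 7.72 CPM in ND-75KDstrong and 13.3, 8.36, 14.2 and 18.1 CPM in ND-75KDweak heads. Only ND-75KDstrong library 1 exceeded the lowest ND-75KDweak library. DESeq2 called it lower (adjusted p = 0.0238), as did 5 of the 16 alternatives in all. *BomS6* was at -0.55 ± 0.37 (adjusted p = 0.420). *BomBc3* (1.19 ± 0.44, adjusted p = 0.123), *BomS2* (0.80 ± 0.28, 0.101) and *BomS5* (0.61 ± 0.32, 0.285) had values above 0 that did not pass.

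**Figure D3:**
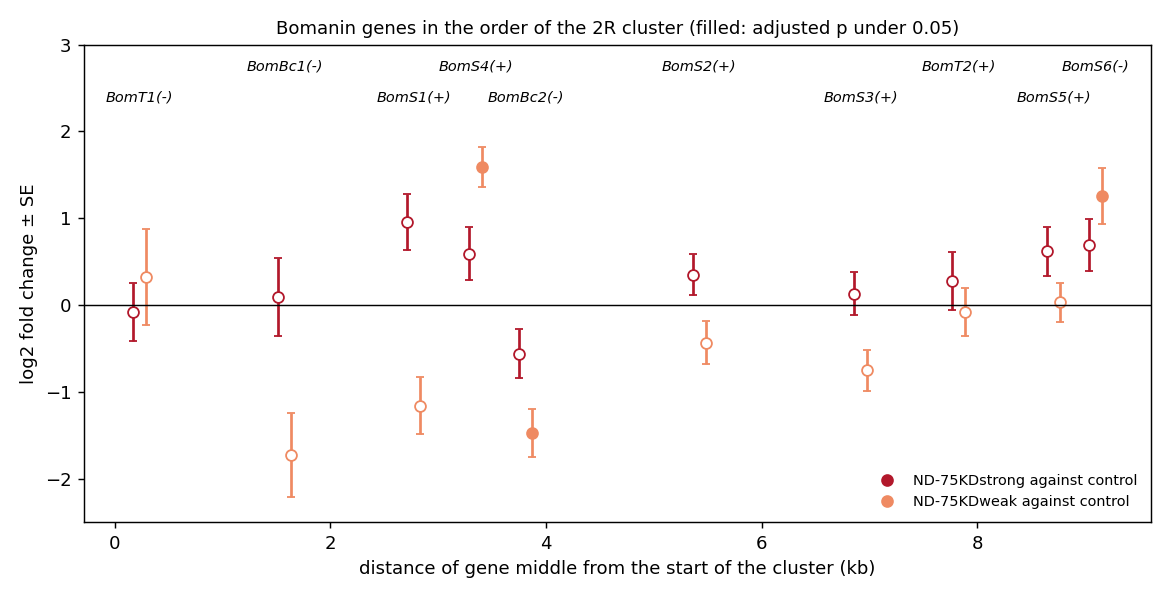
Log2 fold change ± SE of the 10 Bomanin genes of the 2R cluster in ND-75KDstrong against control and ND-75KDweak against control, placed by the distance of the gene's middle from the start of the cluster in kilobases, with the strand in brackets (edgeR, filled where the adjusted p is under 0.05). In ND-75KDweak the rising *BomS4* lies between *BomS1*, with a value of -1.16, and the falling *BomBc2*.

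Direction did not follow position in the cluster. In ND-75KDweak against control the values along the arm were 0.33 for *BomT1*, -1.73 for *BomBc1*, -1.16 for *BomS1*, 1.59 for *BomS4*, -1.47 for *BomBc2*, -0.43 for *BomS2*, -0.75 for *BomS3*, -0.08 for *BomT2*, 0.03 for *BomS5* and 1.26 for *BomS6*, on the log2 scale. *BomS4* thus lies between genes with values below 0 on either side. Direction did not follow strand either, since *BomS4* is on the plus and *BomS6* on the minus strand. All 3 bicipital genes had values below 0, whereas the short genes ranged from -1.16 to 1.59. The 14 other features within 20 kb of the outermost members include *imd*, an adaptor of the Imd pathway, the glutathione S-transferases *GstE1* to *GstE10* and *Idgf5*. Of the 11 that could be tested, 1 rose in ND-75KDweak against control (*GstE5*, 0.86 ± 0.18, edgeR adjusted p = 0.01469), against 2.56% of all features, and 1 fell in ND-75KDstrong against ND-75KDweak (*GstE2*, by 0.37 ± 0.09 on the log2 scale, adjusted p = 0.02677), against 3.09% of all features. In ND-75KDweak against control 3 of them were higher at an unadjusted p under 0.05, and DESeq2 called 2 higher. In ND-75KDstrong against control edgeR called 0 of them, with 2 at an unadjusted p under 0.05, and DESeq2 called 1. Their median log2 fold change was 0.33 in ND-75KDweak against control and 0.32 in ND-75KDstrong against control, each against -0.01 over all features. In ND-75KDstrong against ND-75KDweak it was -0.09, against 0.02.

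Opposite changes within the group show as a ratio. It puts the reads of *BomS4* and *BomS6*, the genes called higher in ND-75KDweak, over those of *BomBc2*, the gene called lower. These genes were chosen by that same contrast, so the ratio is a description without a test. There were 14.2, 6.28, 5.92 and 8.20 reads of *BomS4* and *BomS6* per 100 reads of *BomBc2* in the ND-75KDstrong libraries. In ND-75KDweak there were 25.8, 19.3, 24.0 and 38.5 per 100, and in control 5.66, 4.49, 2.20 and 3.99 per 100. On the log2 scale the mean ratio in ND-75KDweak exceeded that in control by 2.75 (6.74-fold), and that in ND-75KDstrong exceeded control by 1.07 (2.10-fold). The 3 genotypes did not overlap in this ratio, although both of its terms overlapped between ND-75KDstrong and control. Counted over all 6 genes with values below 0 in ND-75KDweak instead, the ratio was 1.53 to 2.29 per 100 in ND-75KDstrong, 4.23 to 7.80 in ND-75KDweak and 0.804 to 1.78 in control heads, and ND-75KDstrong overlapped with control.

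**Figure D4:**
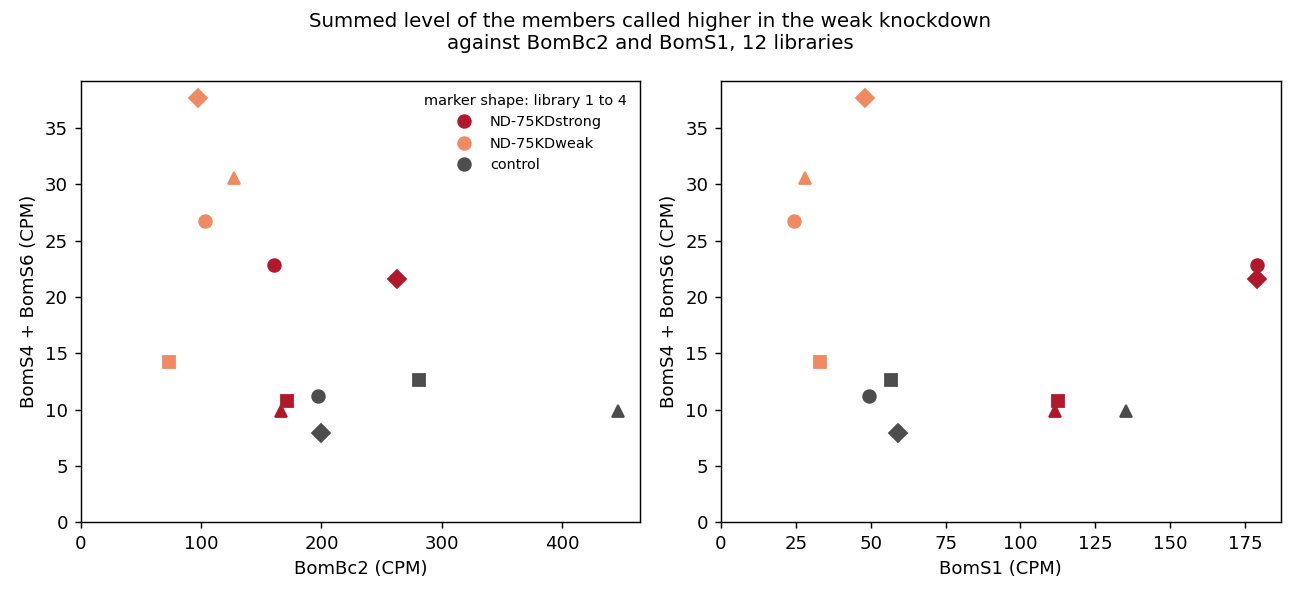
Summed level of *BomS4* and *BomS6*, in CPM, against the level of *BomBc2* (left) and of *BomS1* (right) in the 12 libraries, with symbols for library 1 to 4. The 4 ND-75KDweak libraries have the lowest *BomBc2* and the lowest *BomS1* levels of all 12, and 3 of them the highest summed level of *BomS4* and *BomS6*. *BomS1* separates ND-75KDstrong libraries (112 to 179 CPM) from 3 of the 4 controls, and *BomBc2* does not.

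The make-up of the group restates the levels above as shares, and it is given without a test. Shares add up to the whole, so the share of a gene can differ without a difference in its own level. Shares also rest on the deposited gene lengths. Of the summed level per kilobase of the 9 genes, *BomS1* made up 24.7 ± 0.572% in ND-75KDstrong (mean ± SD, n = 4), 11.3 ± 2.64% in ND-75KDweak and 14.3 ± 3.14% in control heads. *BomBc2* made up 16.8 ± 3.66% in ND-75KDstrong and 17.6 ± 3.64% in ND-75KDweak, against 27.6 ± 2.04% in control heads. These shares did not overlap between ND-75KDstrong and control for either gene. *BomS4* made up 1.43 ± 0.371% in ND-75KDstrong, 5.78 ± 0.801% in ND-75KDweak and 1.22 ± 0.301% in control heads, and *BomS6* made up 2.82 ± 0.482% in ND-75KDstrong, 8.25 ± 2.37% in ND-75KDweak and 2.26 ± 0.772% in control heads. *BomS3* made up 25.2 ± 1.84% in ND-75KDstrong, 27.2 ± 4.39% in ND-75KDweak and 26.8 ± 2.43% in control heads. *BomS5* made up 2.26 ± 0.479% in ND-75KDstrong, 3.02 ± 0.369% in ND-75KDweak and 1.86 ± 0.415% in control heads. Its log2 fold change in ND-75KDweak against control was only 0.03. The summed CPM of the 9 was 874 ± 226 in ND-75KDstrong, 433 ± 85.1 in ND-75KDweak and 822 ± 299 in control heads.

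**Figure D5:**
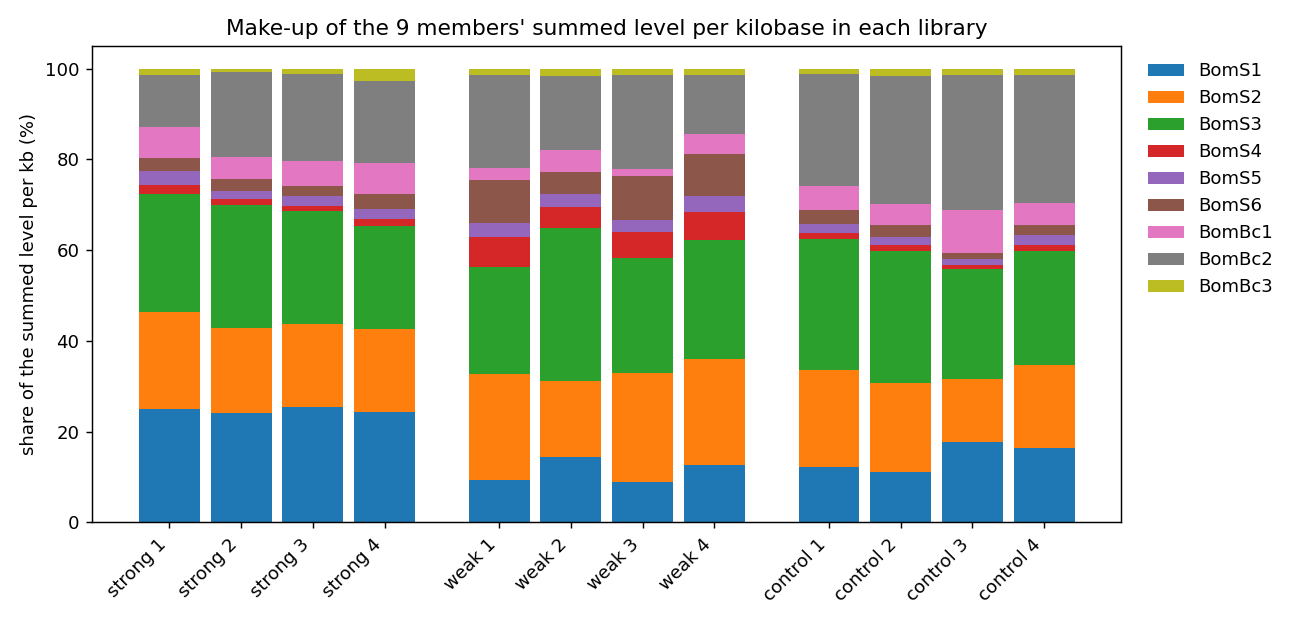
Share of each Bomanin gene, in percent, in the summed level per kilobase of the 9 genes, for each ND-75KDstrong, ND-75KDweak and control library. The *BomS1* share is 24.2 to 25.4% in the ND-75KDstrong libraries and 11.2 to 17.7% in the controls, and the *BomS4* share is 4.70 to 6.60% in the ND-75KDweak libraries and at most 1.98% elsewhere.

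The 3 tailed Bomanins were not called in any comparison by edgeR or DESeq2, and none had an unadjusted p under 0.05. *BomT2*, the most abundant of them, was at 19.9 to 50.1 CPM in ND-75KDstrong, 15.6 to 36.4 CPM in ND-75KDweak and 16.5 to 34.2 CPM in control heads. *BomT3*, the 3R neighbour of *BomBc3*, was at 15.4 to 34.3 CPM in ND-75KDstrong, 19.2 to 28.0 CPM in ND-75KDweak and 15.3 to 27.9 CPM in control heads. *BomT1* reached 29.1 CPM in ND-75KDweak library 4 and was at 4.75 to 16.1 CPM in the other 11 libraries. Its log2 fold change in ND-75KDweak against control was 0.33 ± 0.55, the widest error of the 12 genes there.

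Other genes of the Toll pathway were taken from lists made by function, with earlier results of these data known. Of 12 genes of the pathway from Spätzle to the NF-kappaB factors, with *cact* (the inhibitor of Dorsal and Dif) the most abundant, edgeR called 0 in all 3 comparisons. At an unadjusted p under 0.05 there were 2 higher in ND-75KDstrong against control and none in the others, and DESeq2 called 0. Of 10 testable serine proteases, serine protease homologues and serpins that act upstream of Toll, *spirit* (0.80 ± 0.19) and *grass* (0.41 ± 0.11), proteases of the cascade that activates Spätzle, rose in ND-75KDstrong against ND-75KDweak (edgeR adjusted p = 0.02463 and 0.0337), against 8.18% of all features. Neither comparison with control gave a call in this list by edgeR or DESeq2, with 1 gene lower at an unadjusted p under 0.05 in ND-75KDweak and 0 in ND-75KDstrong. Of 5 recognition genes, *PGRP-SD*, a peptidoglycan recognition protein, fell by 2.38 ± 0.28 in ND-75KDweak against control (adjusted p = 0.0006156) and rose by 2.56 ± 0.20 in ND-75KDstrong against ND-75KDweak (adjusted p = 6.719e-05), on the log2 scale. It was the only call of edgeR in this list. In ND-75KDweak against control, the list median was 0.14, and *GNBP1*, a recognition protein named here after its values were seen, had 0.48 ± 0.15 (adjusted p = 0.0811), with all 4 ND-75KDweak libraries above all controls. Of all features tested, 7.18% lay wholly above control in ND-75KDweak. DESeq2 called 1 of the 5 higher and 1 lower there. In ND-75KDstrong against control edgeR and DESeq2 called 0, with 1 higher at an unadjusted p under 0.05. This was again *GNBP1* (0.46 ± 0.17, edgeR adjusted p = 0.315), with all 4 ND-75KDstrong libraries above all controls, as were those of 4.69% of all features tested.

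Among 9 other Toll-linked effectors, 2 fell in ND-75KDweak against control, against 3.98% of all features, and 3 rose in ND-75KDstrong against ND-75KDweak, against 8.18%. *Drs*, which encodes the antifungal peptide Drosomycin, was at 194, 120, 232 and 332 CPM in ND-75KDstrong, 12.2, 56.4, 11.1 and 29.1 CPM in ND-75KDweak and 81.5, 63.8, 236 and 89.5 CPM in control heads. It fell by 2.11 ± 0.55 on the log2 scale in ND-75KDweak against control (edgeR adjusted p = 0.04605) and rose by 3.03 ± 0.53 in ND-75KDstrong against ND-75KDweak (adjusted p = 0.004536). *CG33470*, a Baramicin A gene, fell by 1.61 ± 0.38 in ND-75KDweak against control (adjusted p = 0.0296) and rose by 1.98 ± 0.35 in ND-75KDstrong against ND-75KDweak (adjusted p = 0.00523), on the log2 scale. *Mtk*, the gene of the antimicrobial peptide Metchnikowin, rose by 3.20 ± 0.55 on the log2 scale in ND-75KDstrong against ND-75KDweak (adjusted p = 0.004352). *CG18067*, which encodes Bombardier, a protein required for short Bomanins to appear in hemolymph, was the most abundant of the list, at 452 to 1858 CPM in ND-75KDstrong, 666 to 969 CPM in ND-75KDweak and 561 to 1254 CPM in control heads, and was not called in any comparison. In ND-75KDstrong against control edgeR and DESeq2 called 0 of these 9, with 2 higher at an unadjusted p under 0.05. Median log2 fold changes of the list were -0.34 in ND-75KDweak against control, 0.36 in ND-75KDstrong against control and 0.96 in ND-75KDstrong against ND-75KDweak.

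Targets of the Imd pathway, the other NF-kappaB route of the fat body, are set beside these. Of 17, 9 fell in ND-75KDweak against control (3.98% of all features), 2 rose in ND-75KDstrong against control (1.78%) and 15 rose in ND-75KDstrong against ND-75KDweak (8.18%), with median log2 fold changes of -2.38, 0.66 and 3.05. In ND-75KDweak against control the called genes of smallest p were *AttD* (-4.79 ± 0.67), *edin* (-4.92 ± 0.71), *DptA* (-4.49 ± 0.66) and *DptB* (-3.49 ± 0.70), on the log2 scale. The Attacin gene *AttC*, the most abundant, was at 540 to 702 CPM in ND-75KDstrong, 16.8 to 159 CPM in ND-75KDweak and 255 to 986 CPM in control heads. It was not called in ND-75KDweak against control (edgeR adjusted p = 0.0555). As with *BomS1* and *BomBc1*, control library 3 was the highest control of *AttC*, *DptA* and *DptB*. Of the 9 Toll-linked and 17 Imd targets, edgeR and DESeq2 called 0 higher in ND-75KDweak against control, the direction of *BomS4* and *BomS6*, with 0 at an unadjusted p under 0.05. edgeR called 2.56% of all features higher there. Among so few genes 0 is near that share, so it does not set *BomS4* and *BomS6* apart from these targets.

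Over the 12 libraries, log2 levels of *BomS1*, *BomS3* and *BomBc1* ran together (Pearson r from 0.88 to 0.93), as did those of *BomS4* and *BomS6* (r = 0.90). Between these sets r ran from -0.44 to -0.13, and *BomS4* and *BomBc2*, whose exons overlap, had r = -0.61. The sets do not divide all the Bomanins described. *BomS5* ran with both, at r = 0.69 with *BomS1*, 0.63 with *BomBc1*, 0.31 with *BomS4* and 0.46 with *BomS6*. *BomS2* had r = 0.77 with *BomS1*, -0.03 with *BomS4* and 0.28 with *BomS6*. For *BomBc3* these were 0.73, -0.05 and 0.15. *BomBc2* had r = 0.62 with *BomS1* and -0.38 with *BomS6*. Pools of 1 genotype share that genotype, so these values describe 12 libraries and not 12 independent conditions. *BomS4* and *BomS6* were called higher in ND-75KDweak against control, where *BomS1*, *BomS3* and *BomBc1* had values below 0. The same libraries enter r, so r within and between these sets is partly built in and is a description only. Of 10829 other features, the one most like *BomS1* was *PGRP-SB1* (r = 0.97), an Imd-induced peptidoglycan recognition protein, followed by *CG43236* and *Spn42De*. *PGRP-SB1* was at 337 to 478 CPM in ND-75KDstrong, 72.6 to 86.0 CPM in ND-75KDweak and 121 to 422 CPM in control heads. The feature most like *BomS4* was *Jabba* (r = 0.95), which encodes a lipid droplet protein, followed by *CG43114* and *RpL39*. *Jabba* was at 110 to 168 CPM in ND-75KDstrong, 197 to 250 CPM in ND-75KDweak and 103 to 117 CPM in control heads, with log2 fold changes of 1.05 in ND-75KDweak against control (edgeR adjusted p = 0.0008121) and -0.64 in ND-75KDstrong against ND-75KDweak (adjusted p = 0.0185).

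Most like *BomS6* were *CG11279*, *ksh* and *MSBP* (r from 0.93 to 0.94), and none of these 3 was called in any comparison. *BomBc2* was most like *CG31633*, *CG3045* and *CG15443* (r from 0.96 to 0.97). *CG31633* fell by 0.73 in ND-75KDweak against control on the log2 scale (edgeR adjusted p = 0.03781). *BomBc1* was most like *CG18081*, *CG10916* and the Baramicin A gene *CG33470* (r from 0.94 to 0.95). For *BomS3* these were *CG12321*, *CG18081* and *CG30154*, for *BomS2* *cer*, *CG16704* and *CG14854*, for *BomS5* *CG43071*, *CG16704* and *sinu*, and for *BomBc3* *CG9338*, *Fkbp12* and *CG4594*, with r from 0.92 to 0.97. The 27 places were taken by 25 features, of which 2 stood beside more than 1 Bomanin.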

How the data were processed

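The authors deposited 3 tables, 1 for each pair of genotypes, with raw counts per feature and the gene length in bases for each feature. Per the labels' processing notes the counts were made with fastp, HISAT2 and featureCounts, for which neither versions nor settings are given in the sources used here. Counts of a library were the same in every table. The 48 columns of normalized counts and FPKM per sample, and the columns of the authors' own fold changes and p-values from DESeq2, were not used.

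Counts were tested in R 4.3.3 with edgeR 4.0.16 (TMM scaling, filterByExpr with a minimum count of 10 and a minimum total of 15, quasi-likelihood test). Each comparison used its own 8 libraries. A call needs an adjusted p under 0.05 (Benjamini-Hochberg, over all features). Counts of genes at an unadjusted p under 0.05 are listings only, since the share of all features at that threshold was not counted. The SE is the fold change divided by the root of its F statistic. CPM used TMM factors over 12 libraries. The deposited gene length served for levels per kilobase. Single genes were also compared with exact two-sided permutation tests of log2 CPM, 36 in all, whose smallest p is 0.0286. They were not used for calls. Nothing says whether pools came from separate crosses, so p-values measure the spread between pools, which may be technical.

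Alternatives were DESeq2 1.42.0, RLE size factors, no filter, protein-coding genes only, all 12 libraries in 1 fit, a replicate block, removal of a gene length trend, single libraries and pairs of libraries left out.

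The 9 genes and all lists were chosen with earlier results of these data known. Named genes are the 12 Bomanins, up to 4 called members per list, direction and comparison by smallest p with the most abundant member, the 3 features most like each gene, and *ND-75*. Neighbours of the cluster that were called are named as well. Of the deposited coordinates, 99.9% of matched IDs equal release 6. Marker lists of neurons, glia, photoreceptors and muscle are given in the closing section.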

Additional observations from a re-analysis of the deposited data

Results flagged for a closer look

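In 4 of 27 groups of 4 libraries, 1 library stood apart from the other 3 by Dixon's criterion, which chance meets in about 1 of 20 groups. Control library 3 was the highest control for *BomS1* (135 CPM, next 59.0 CPM), *BomBc1* (95.2 CPM, next 31.6 CPM) and *BomS5* (6.37 CPM, next 5.18 CPM). ND-75KDstrong library 4 was the highest for *BomBc2* (263 CPM, next 171 CPM). Control library 3 also had the fewest features with counts and the lowest summed fat body markers of the controls (2659 CPM, against 5239 to 7349 CPM in the other 3), and the part of these in its Bomanin levels was not tested.

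The 2 knockdown genotypes differed from each other by a direct test for 4 genes. ND-75KDstrong exceeded ND-75KDweak by 2.13 (*BomS1*), 1.84 (*BomBc1*), 0.93 (*BomBc2*) and 0.90 (*BomS3*) on the log2 scale, with edgeR adjusted p from 0.0004923 to 0.01419 and all 4 ND-75KDstrong libraries above all 4 ND-75KDweak libraries for each. *BomBc2* was called lower in the same ND-75KDweak libraries against control, and *BomS1* and *BomBc1* lay wholly below control in them. The direction of these genes is thus partly built in.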

How the results depend on the processing

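In ND-75KDweak against control, the number of Bomanin genes called higher (2) was 2 in the 8 alternatives that left no single library out and 1 to 2 with 1 library left out, as *BomS6* was lost. The number called lower (1) was 4 with DESeq2 and with the gene length trend removed, 3 with no filter and with all 12 libraries in 1 fit, 2 with the replicate block, and 1 to 3 with 1 library left out. In ND-75KDstrong against control, the number called higher (0) was 1 without control library 3 together with ND-75KDstrong library 4, and 0 to 1 with 1 library left out. In ND-75KDstrong against ND-75KDweak, the number called higher (4) was 4 to 5 in the alternatives that left no single library out and 3 to 5 with 1 library left out. The number called lower there (0) was 1 with DESeq2 and with the replicate block, 2 without ND-75KDweak library 2 together with ND-75KDstrong library 4, and 0 to 1 with 1 library left out. The causes were not tested. Same-numbered libraries had correlations of their deviations from -0.45 to 0.14, and in 1 of 12 cases the best match was the same number. This gave no sign that the numbers pair the samples. With so few libraries per group it cannot exclude a shared batch, on which the labels are silent.

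Of the values that changed sign, none was called. *BomS5* in ND-75KDweak against control was -0.0138 with the replicate block, -0.11 with the gene length trend removed and -0.23 to 0.15 with 1 library left out. In ND-75KDstrong against control, with 1 library left out, *BomBc1* ranged from -0.13 to 0.81, *BomBc3* from -0.15 to 0.70 and *BomS3* from -0.0228 to 0.34, on the log2 scale. The log2 ratio of the genes called higher to that called lower, ND-75KDstrong minus control, was 0.45 in place of 1.07 when all 6 genes with values below 0 formed the denominator, a choice made after seeing the data. Levels in CPM on total counts moved by less than 1 SD for all 9 genes in all 3 genotypes.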

Other observations

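Libraries within a genotype differed in a way that most Bomanins shared. ND-75KDstrong libraries 1 and 4 were both above libraries 2 and 3 for 8 of the 9 genes, against 33.7% of the 10638 features tested, with *BomBc2* the exception. ND-75KDweak library 4 was the highest of its genotype for 8 of the 9 genes, against 20.5% of the features. Control library 3 was the highest control for 7 of the 9, against 42.3% of the features, the exceptions being *BomS4* and *BomS6*, for which control library 2 was the highest. These orders were noticed in the data and were not tested.

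Markers of the other cell types in the head were at hand for comparison. Of all features tested, edgeR called 2.56% higher and 3.98% lower in ND-75KDweak against control. In ND-75KDstrong against control these shares were 1.78% and 0.589%, and in ND-75KDstrong against ND-75KDweak 8.18% and 3.09%. edgeR called 0 of 13 neuronal and 0 of 8 glial markers in any comparison, and DESeq2 called 0. At an unadjusted p under 0.05 there were 0 neuronal markers, and 2 glial markers lower in ND-75KDstrong against control. Of 10 photoreceptor markers 1 was lower in ND-75KDstrong against ND-75KDweak, and of 7 testable muscle markers 1 was lower in ND-75KDweak against control and 2 were higher in ND-75KDstrong against ND-75KDweak. Of 9 fat body markers 2 were higher and 2 lower in ND-75KDweak against control, 1 was higher in ND-75KDstrong against control, and 2 were higher and 2 lower in ND-75KDstrong against ND-75KDweak. In ND-75KDweak against control, *Fbp2* (-5.91 ± 0.73) and *Fbp1*, a receptor of larval serum proteins (-3.75 ± 0.32), were lower, and *Lsp2*, a larval serum protein (1.56 ± 0.36), and *AkhR*, the adipokinetic hormone receptor (0.55 ± 0.14), were higher, on the log2 scale. *Fbp1* was higher in ND-75KDstrong against control (1.92 ± 0.43). In ND-75KDstrong against ND-75KDweak, *Fbp2* (7.73 ± 0.74) and *Fbp1* (5.69 ± 0.59) were higher, and the fatty acid synthase gene *FASN1* (-0.71 ± 0.18) and the lipid transfer protein gene *Apoltp* (-0.51 ± 0.14) were lower.

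Of 11 hemocyte markers 2 were higher and 1 lower in ND-75KDweak against control, against 2.56% and 3.98% of all features. In ND-75KDstrong against ND-75KDweak 1 was higher and 5 lower (7 lower with DESeq2), against 8.18% and 3.09% of all features with edgeR. In ND-75KDstrong against control edgeR called 0, DESeq2 called 1 higher, and an unadjusted p under 0.05 was found for 1 gene above and 1 gene below 0. In ND-75KDweak against control, the prophenoloxidase genes *PPO1* (1.35 ± 0.19) and *PPO2* (1.02 ± 0.21) were higher, and *NimC4*, a phagocytic receptor (-2.82 ± 0.51), was lower, on the log2 scale. In ND-75KDstrong against ND-75KDweak, *NimC4* was higher (2.99 ± 0.45), and *PPO2* (-1.10 ± 0.20), *Sr-CI* (-0.81 ± 0.18), *PPO1* (-0.76 ± 0.17), *Hml* (-0.74 ± 0.17) and *Pxn* (-0.53 ± 0.10) were lower. The part of these cells in the Bomanin values was not tested.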
